A study of Mus musculus with 46 samples.

Results

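Casr, Gnal and Adora2b encode 3 proteins that carry signals from outside the cell to its interior, and their array signal is described here in the cecum and liver of mice on 4 diets. The genes were chosen because all 3 were higher in the cecum on both fiber diets than on the high-fat diet, so that contrast is given below as values with no test. Its intervals take no account of that choice and are not read as tests. Every non-control probe whose transcript accession maps to one of the symbols was taken, which gave 1 probe for Casr, 2 for Gnal and 2 for Adora2b, 5 of the 55681 probes and 3 of the 20887 named genes measured. All 3 also stand in the study's own list of cecal genes that respond alike to both fiber diets, a list drawn from these same arrays.

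Male C57Bl/6 mice, an inbred strain, were 12 weeks old when the diets began and ate them for 8 weeks. HFD held 45% of its energy as fat and LFD 10%. HFD + inulin was HFD with 10% of the carbohydrate by weight, 5% as corn starch and 5% as cellulose, exchanged for inulin, a fermentable fructose polymer, and HFD + inul PB held 5% each of the propionate ester and the butyrate ester of inulin instead. Values named as with inulin or with the esters below are from these diets in turn. RNA from 20 mg of tissue was read on one-colour Agilent mouse arrays, 22 of cecum (6 HFD, 5 LFD, 6 HFD + inulin and 5 HFD + inul PB) and 24 of liver (6 per diet). By the study's methods the arrays of a diet are separate mice, and nothing in the labels ties a cecum array to a liver array of the same mouse.

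Casr is a class C G protein-coupled receptor that senses calcium outside the cell and is also sensitive to amino acids and polyamines. It signals mainly through Gq, which releases calcium from stores, and through Gi, which lowers cAMP, and in the large bowel it is found on epithelial cells, endocrine cells and enteric neurons. Adora2b is the low-affinity receptor for adenosine, which couples to stimulatory G proteins and is known in colonic epithelium for driving chloride secretion through cAMP. Gnal encodes G alpha olf, a stimulatory G alpha subunit close to that of Gnas, which links receptors to adenylyl cyclase and was first described in olfactory neurons.

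No Gnal promoter is shown. The promoters of both receptor genes are shown because their start regions differ in base composition. They are the 250 bases upstream of the annotated start in RefSeq (GRCm38.p6), on the coding strand from 5′ to 3′, with each CpG dinucleotide in capitals. Casr lies at chr16:36562135-36562384 on the minus strand and Adora2b at chr11:62248734-62248983 on the plus strand.
Casr: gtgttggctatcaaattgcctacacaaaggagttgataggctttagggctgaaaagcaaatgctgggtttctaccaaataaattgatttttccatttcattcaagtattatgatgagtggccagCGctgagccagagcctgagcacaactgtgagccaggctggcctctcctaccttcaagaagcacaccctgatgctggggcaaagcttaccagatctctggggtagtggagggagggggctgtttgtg
Adora2b: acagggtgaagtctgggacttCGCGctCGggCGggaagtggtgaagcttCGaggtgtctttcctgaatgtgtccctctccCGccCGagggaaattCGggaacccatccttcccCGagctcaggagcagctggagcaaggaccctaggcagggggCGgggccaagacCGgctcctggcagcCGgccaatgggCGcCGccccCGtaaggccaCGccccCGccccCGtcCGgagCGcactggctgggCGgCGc

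The Casr window held 1 CpG and 48.8% G or C, and the Adora2b window 22 CpG and 69.6%. Over the 32851 RefSeq promoters of the same length the median was 6 CpG, with quartiles of 2 and 16, and the median G or C share was 52.4%, with quartiles of 45.2% and 61.2%. Adora2b thus lay above the upper quartile and Casr below the lower quartile for CpG. On either strand neither window held TGACGTCA, the cAMP response element, its core TGACG, or ACGTG, the core bound by hypoxia-inducible factors. These letters occur in 1.55%, 17.8% and 16.6% of all promoters, and the core lies within the full element.

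Signals are given as log2 of the background-subtracted signal after cyclic loess normalisation within a tissue, in arbitrary units, so that 1 unit is a doubling, and no probe's level can be set against another probe's. Between 48.4% and 55.9% of probes were well above background on a cecum array and between 46.4% and 51.7% on a liver array, and each diet of a tissue was spread over the 3 slides of that tissue. The mean signal of hepatocyte markers was 17.13–17.66 on liver arrays and 5.98–8.87 on cecum arrays, and that of absorptive colonocyte markers 8.13–8.62 on liver arrays and 15.53–16.73 on cecum arrays, each tissue normalised on its own. Cecum HFD replicate 5 stood apart, with the lowest cecal signal of all 5 probes. It also gave the lowest colonocyte mean (15.53) and the highest hepatocyte mean (8.87) of the cecum arrays. Differences that rest on it are therefore also given without it.

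Casr was near the limit of measurement in the cecum of HFD mice and clear of it on both fiber diets. On HFD it ran from 2.80 to 6.37 with a median of 5.35, and 4 of the 6 arrays were well above background (not replicates 4 and 5). On HFD + inulin it ran from 6.47 to 8.49 with a median of 7.11. The 5 HFD + inul PB arrays gave 7.70, 7.61, 7.75, 8.06 and 7.80. Every array of either fiber diet was above every HFD array, by 0.10 at the nearest point for HFD + inulin and by 1.24 for HFD + inul PB. The 5 LFD arrays gave 5.36, 5.50, 5.17, 5.92 and 5.91, inside the HFD range.

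In means, Casr stood at 5.06 ± 1.26 (SD, n = 6) in HFD mice and at 5.57 ± 0.33 (n = 5) in LFD mice. With inulin it was 7.30 ± 0.76 (n = 6) and with the esters 7.78 ± 0.17 (n = 5). The difference from HFD was 2.24 (SE 0.44) on HFD + inulin, a fold of 4.71 with a 95% interval of 2.49 to 8.91, and 2.72 (SE 0.46) on HFD + inul PB, a fold of 6.59 (3.38 to 12.9). Only 8 of the 55681 probes had a larger difference upward with inulin and 10 with the esters. Without HFD replicate 5 the folds were 3.44 and 4.82. With no background subtraction the differences were 1.27 and 1.60, so the size of the Casr fold rests on how the dim HFD signals are treated.

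Gnal, the G alpha subunit, had the clearest signal of the set relative to its spread. On probe A_55_P2119633 HFD arrays ran from 7.23 to 8.74 with a median of 8.12, and HFD + inulin arrays from 9.08 to 10.93 with a median of 10.03. HFD + inul PB arrays gave 10.50, 10.11, 10.24, 10.36 and 10.39, the tightest group of the 4 diets. LFD arrays gave 8.02, 8.48, 8.70, 8.79 and 8.32, of which 4 were inside the range of HFD and the replicate at 8.79 was above it. All 11 fiber arrays were above all 11 HFD and LFD arrays, and the share of all probes for which this holds is not given.

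The Gnal means were 8.08 ± 0.52 (SD, n = 6) for HFD and 8.46 ± 0.31 (n = 5) for LFD, against 9.98 ± 0.69 (n = 6) for HFD + inulin and 10.32 ± 0.15 (n = 5) for HFD + inul PB. HFD + inulin was 1.90 (SE 0.27) above HFD, or 3.72-fold (2.52 to 5.5), and HFD + inul PB 2.24 (SE 0.28), or 4.71-fold (3.13 to 7.1). The other Gnal probe, A_55_P2119628, gave 1.62 (SE 0.25) and 1.86 (SE 0.26), again with every fiber array above every HFD array. Its differences were 1.11 and 1.27 under normexp correction, and the second was 1.39 with no background correction. Without HFD replicate 5 the folds on the first probe were 3.3 and 4.19.

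Adora2b, the adenosine receptor, was detected on every cecum array by probe A_55_P1993503 and moved least of the 3 genes. HFD arrays ran from 6.23 to 8.28 with a median of 7.77, and HFD + inulin arrays from 8.25 to 9.71 with a median of 8.92, so these groups met by 0.02. HFD + inul PB arrays gave 9.63, 9.55, 9.15, 9.18 and 9.32, all above the HFD range by at least 0.87. LFD arrays gave 7.80, 7.75, 8.90, 9.20 and 8.31, of which 3 were above every HFD array.

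Adora2b averaged 7.63 ± 0.75 (SD, n = 6) for HFD, 8.39 ± 0.65 (n = 5) for LFD, 9.03 ± 0.59 (n = 6) for HFD + inulin and 9.37 ± 0.22 (n = 5) for HFD + inul PB. The difference from HFD was 1.41 (SE 0.33) on HFD + inulin, 2.65-fold (1.64 to 4.29), and 1.74 (SE 0.35) on HFD + inul PB, 3.34-fold (2.02 to 5.53). Without HFD replicate 5 the folds were 2.18 and 2.75. The dimmer probe A_66_P118906 gave smaller differences of 0.59 (SE 0.27) and 0.95 (SE 0.28), with HFD and HFD + inulin arrays overlapping. On HFD + inulin 2792 probes had a larger difference upward than this one, against 112 for A_55_P1993503.

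**Figure D1:**
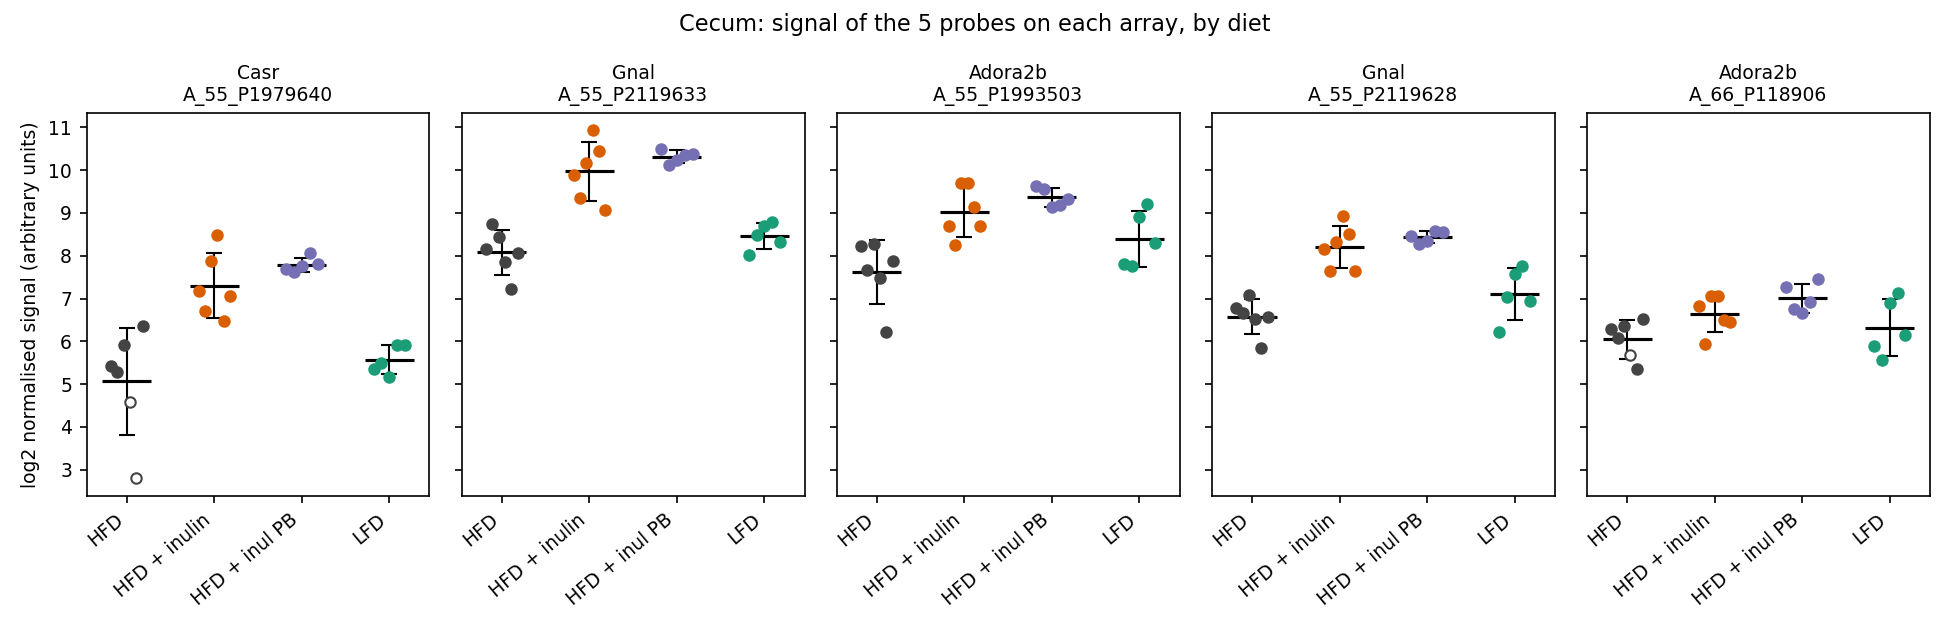
Log2 normalised signal of the 5 probes on each of the 22 cecum arrays, by diet, with the diet mean (line) and SD (bars); open circles are arrays not well above background. For Casr and both Gnal probes all fiber arrays lie above all HFD arrays. For Adora2b the HFD + inulin and HFD arrays overlap, narrowly on A_55_P1993503 and more widely on A_66_P118906.

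In the cecum as a whole 1.17% of probes were higher with inulin and 2.54% with the esters by the study's criteria, a fold over 1.5 with an unadjusted P under 0.01, and 0.814% were higher on both. All arrays were above all HFD arrays for 0.783% of probes with inulin, for 3.51% with the esters and for 0.581% with both, the last of which held for the Casr probe and both Gnal probes and not for the Adora2b probes. Since the genes were chosen on this contrast, their place in that share is a description. Within slides, which each held all 4 diets, Casr was 1.60, 2.94 and 2.17 higher on HFD + inulin than on HFD, Gnal 1.16, 2.40 and 2.12, and Adora2b 0.53, 1.82 and 1.87. HFD + inul PB was above HFD on all 3 slides for each gene as well, by between 1.26 (Adora2b) and 3.35 (Casr).

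Of the 4 diets, HFD + inul PB gave the highest mean of every probe, followed by HFD + inulin, LFD and HFD. The step between HFD + inulin and LFD was larger than the larger of the SDs of those diets for Casr (1.73 against 0.76) and Gnal (1.52 against 0.69). For Adora2b the step from LFD to HFD (0.77 against an SD of 0.75) was the one that exceeded it, on probe A_55_P1993503 alone: the step was 0.28 against 0.67 on the other probe, and 0.49 on the first without HFD replicate 5. Other neighbours in the order did not differ beyond their spread. The share of the variance across arrays that lay between diets was 71.6% for Casr, 82.7% for Gnal and 60.8% for Adora2b on the first-named probes, and 39.8% for the dimmer Adora2b probe.

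HFD + inul PB was set against HFD + inulin on the same fiber arrays on which the genes were chosen, and no difference was detected. Since a rise on both diets was the rule of choice, this lack of a difference is not independent of it. HFD + inul PB was above HFD + inulin by 0.48 for Casr (95% interval −0.48 to 1.45), 0.34 for Gnal (−0.25 to 0.93) and 0.33 for Adora2b (−0.39 to 1.06). Adjusted P from limma were 0.901, 0.879 and 0.911, and two-sided exact permutation tests gave P = 0.199, 0.312 and 0.281. The intervals still allow a further doubling on the ester diet for Casr and Adora2b. The sign was not steady between slides, since on slide 2, with 1 HFD + inul PB array, the differences were −0.44, −0.31 and −0.55. Among all probes 0.803% passed the study's criteria in this comparison.

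LFD, with less fat and no added fermentable fiber, was set against HFD as the second reference, on HFD arrays shared with the contrast that chose the genes. By the study's list of diets LFD held cellulose as HFD did. It also held more corn starch and sucrose than HFD, so fat was not the only difference. The study's list held only genes it did not call on LFD, so the lack of a call there is not independent of how the genes were found. LFD exceeded HFD by 0.51 for Casr (SE 0.46, 95% interval −0.46 to 1.47), by 0.38 for Gnal (SE 0.28, −0.21 to 0.97) and by 0.77 for Adora2b (SE 0.35, 0.04 to 1.49). None passed: the adjusted P from limma were 0.855, 0.839 and 0.839, and exact permutation P were 0.483, 0.19 and 0.106. For Adora2b the unadjusted limma P was 0.0401. Among all probes none passed adjustment in this comparison (0%), while 2919 had an unadjusted P under 0.05 and 0.639% met the study's criteria. Without HFD replicate 5 the LFD differences were 0.06 for Casr, 0.21 for Gnal and 0.49 for Adora2b, so the Casr difference rested on that array.

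The fiber diets are also set beside LFD, as values with no test, since the fiber arrays are those on which the genes were chosen and the study's list was also drawn with LFD in view. The mean of the fiber diets exceeded LFD by 1.97 for Casr (SE 0.41), a fold of 3.92 (2.16 to 7.11), and by 1.69 for Gnal (SE 0.25), a fold of 3.22. The other Gnal probe was 1.21 higher (SE 0.23). All fiber arrays were above all LFD arrays for Casr, with a gap of 0.55, and for the first Gnal probe, with a gap of 0.29. The share of all probes separated from LFD in this way is not given, so nothing is read from these gaps. Adora2b was 0.81 higher (SE 0.31, 1.75-fold) and its dimmer probe 0.50 higher, both with overlapping arrays. In this comparison 1.12% of all probes passed adjustment, from which nothing is read about the 3 genes.

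**Figure D2:**
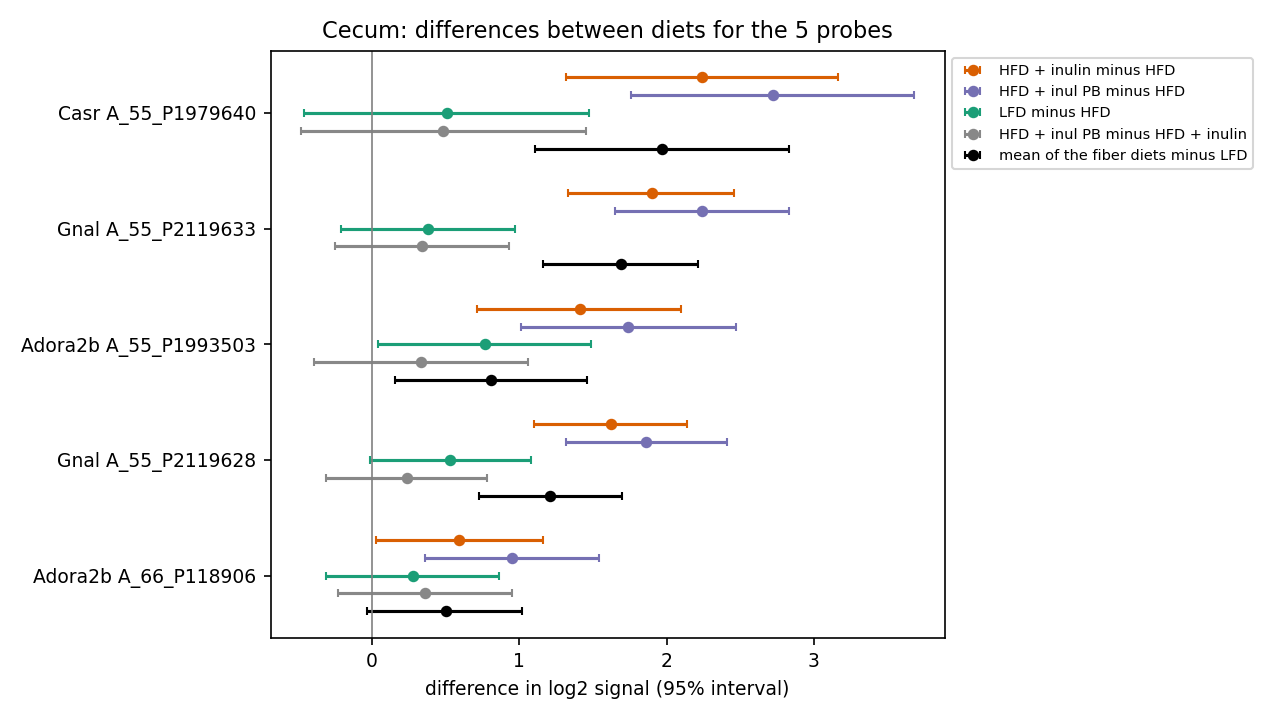
Differences between diets in cecal log2 signal for the 5 probes, with 95% intervals from limma (x axis, 1 unit is a doubling). The fiber diets lie furthest from HFD for Casr (2.24 and 2.72), and the intervals of HFD + inul PB minus HFD + inulin (grey) include 0 for every probe. Intervals of the fiber diets minus HFD or LFD take no account of the choice of the genes and are not read as tests.

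Among arrays of the same diet, Adora2b correlated with both other genes, which does not set these genes apart from others. After the diet mean was removed, deviations of Gnal and Adora2b on the 22 cecum arrays correlated with r = 0.74 and Spearman's rho 0.77 (permutation within diets, P = 0.00092 and 0.00068, adjusted over 6 relations 0.0055 and 0.0041). Casr and Adora2b gave r = 0.71 and rho 0.64 (permutation P = 0.0037 and 0.0054, adjusted 0.011 and 0.016), but with no background correction rho was 0.53 and in the authors' processed values 0.52, neither of which passed (permutation P adjusted 0.083 and 0.084), while r did (0.60 in both, adjusted 0.026). Casr and Gnal gave r = 0.58 and rho 0.52 (permutation P = 0.026 and 0.044), which did not pass after adjustment (0.052 and 0.087). The permutation tests ask only whether a relation is present. The share of all gene pairs with such values is not given, so no relation particular to these genes is read from them. Genes listed further below as most like Adora2b gave r of 0.86 (B3gnt2) to 0.91 (Mboat2) with it in such deviations.

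HFD replicate 5 lay far below its diet mean for all 3 genes. The 2 arrays farthest from the median of the first-named gene were then left out, with the diet means still those of all arrays. For Casr these were HFD replicates 5 and 6, and r was 0.58 with Adora2b and 0.53 with Gnal. Replicate 5 still entered the HFD mean, so its weight was not fully removed. For Gnal with Adora2b they were HFD + inulin replicates 4 and 6, and r was 0.76 with HFD replicate 5 kept. With arrays scaled to the 75th percentile, HFD replicate 5 and HFD + inulin replicate 4 were the 2 left out for this pair, and r was 0.64. With slide means removed as well and all 22 arrays kept, r was 0.71 for Gnal with Adora2b, 0.70 for Casr with Adora2b and 0.55 for Casr with Gnal. These are relations between whole-tissue samples, in which fewer cells of a type and less RNA per cell cannot be told apart.

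**Figure D3:**
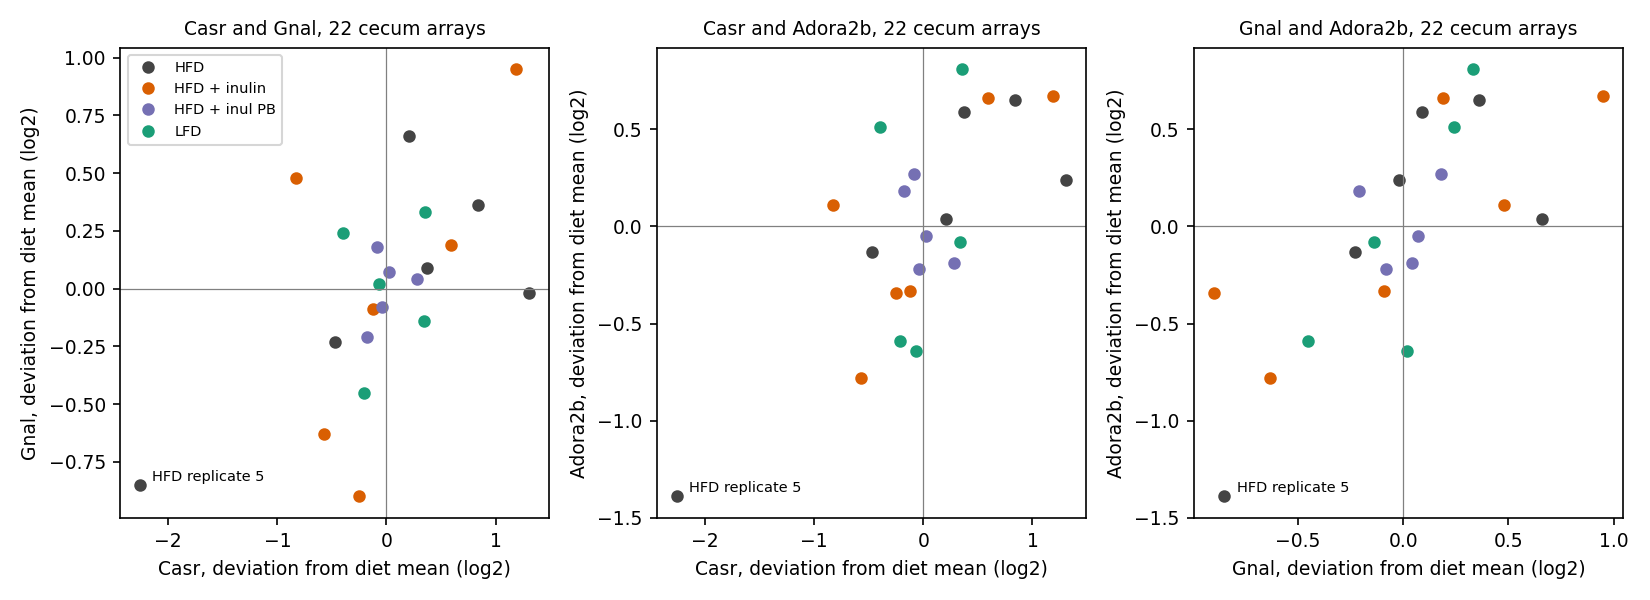
Deviation of each cecum array from its diet mean in log2 signal, for each pair of the 3 genes (22 arrays, colours are diets). HFD replicate 5 is labelled, and r is 0.58, 0.71 and 0.74 from left to right.

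Several cell type marker lists held genes that met the study's criteria on a fiber diet, while none of the markers did on LFD. Over all 55681 probes, 650 were higher and 725 lower with inulin, 1416 and 1195 with the esters, and 199 and 157 on LFD. In either direction 2.47%, 4.69% and 0.639% of probes met the criteria on these diets. The mean signal of 9 absorptive colonocyte markers was 15.53–16.19 on HFD, 16.10–16.34 on LFD, 16.34–16.73 with inulin and 16.52–16.71 with the esters, so that every fiber array was above every HFD array. By the study's criteria 2 of the 9 were higher with inulin and 3 with the esters, among them the anion exchanger Slc26a3 (1.04 and 1.21, adjusted P from limma 0.0388 and 0.00782) and the carbonic anhydrase Car4 (0.82 and 1.20, adjusted P 0.0144 and 0.000448). Goblet cell markers went the other way, from 15.78–16.25 on HFD and 15.46–16.08 on LFD to 15.08–15.57 with inulin and 15.04–15.29 with the esters, with 4 and 7 of 9 lower. The study already reported Slc26a3 and Car4 as higher, and the goblet marker Agr2 as lower, from these same arrays. The marker lists are therefore not independent evidence of a direction.

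Enteroendocrine markers, the cells in which Casr is best known in the gut, overlapped between diets, at 8.62–9.58 on HFD, 8.48–9.86 on LFD, 8.94–9.52 with inulin and 9.04–9.33 with the esters. Of the 11 markers, 1 fell with inulin, while on HFD + inul PB 1 rose and 1 fell by the study's criteria. Enteric neuron and glia markers were 7.44–8.54 on HFD, 6.83–8.32 on LFD, 5.21–7.73 with inulin and 6.82–7.82 with the esters. Of these markers 7 of 11 were lower with inulin and 0 of 11 with the esters, beside 725 and 1195 of all 55681 probes. Adipocyte markers ran from 9.67 to 13.27 on HFD, from 5.56 to 12.57 on LFD, from 5.96 to 12.17 with inulin and from 5.71 to 9.98 with the esters, with 0 and 5 of 7 lower. On HFD + inul PB 4 of 7 leukocyte and 2 of 8 stem and proliferation markers were also lower, and 0 of 8 smooth muscle markers differed on either fiber diet. Means of the neuron and glia list were 8.09 on HFD, 7.32 on LFD, 6.69 with inulin and 7.40 with the esters. In the same order the leukocyte list gave 9.34, 8.71, 8.91 and 8.60. The colonocyte list gave 16.01, 16.21, 16.48 and 16.61, and the goblet list 15.93, 15.77, 15.32 and 15.14. The part of these lists in the results for Casr, Gnal and Adora2b was not tested.

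Around the 3 genes, 12 lists of 199 other genes covered adenosine receptors and supply, calcium sensing and uptake, G protein subunits and regulators, and the cAMP and Gq pathways. By the study's criteria 4 of the 199 were higher and 7 lower on HFD + inulin, where 2.47% of all probes passed in either direction, and 7 were higher and 12 lower on HFD + inul PB, where 4.69% passed. By adjusted P from limma with no limit on fold the balance turned, with 6 higher and 3 lower on HFD + inulin and 12 higher and 8 lower on HFD + inul PB, where 1.58% and 7.02% of all probes passed. The median difference over the 199 was −0.09 and −0.07, against 0.01 and 0.00 for all probes. On LFD 1 of the 199, Adora2a, met the criteria. The lists were chosen with earlier results known, and some of their genes, such as Ramp1 and Gnb5, stand in the study's own list from these arrays, so they are not independent evidence of a direction.

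On the receptor side, none of the other 3 adenosine receptors met the criteria on either fiber diet. Adora1 differed from HFD by −0.56 with inulin and −1.03 with the esters, Adora2a by −0.03 and −0.33, and Adora3 by 0.12 and −0.24. Of 22 genes of adenosine supply and clearance, 1 was lower on HFD + inulin, the ectonucleotidase Entpd3 (−1.38, adjusted P from limma 0.139). On HFD + inul PB Entpd1, which starts the breakdown of extracellular ATP, was lower (−0.95, adjusted P 0.0416) and 1 other gene higher. Nt5e, the enzyme that makes adenosine outside the cell, gave −0.37 and 0.05, and Ada, which removes it, −0.61 and −0.61.

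Among 15 genes of calcium and amino acid sensing, Ramp1 fell by 0.95 and by 1.36 on the fiber diets (adjusted P from limma 0.0139 and 0.000536). All fiber arrays lay below all HFD arrays for it, and the share of all probes that do so is not given. Ramp1 encodes an accessory protein that takes calcitonin family receptors, and Casr among others, to the cell surface. It was the 1 gene of the list that passed on HFD + inulin, and 1 other was lower on HFD + inul PB. Gprc6a, the class C receptor most like Casr, was not above background on any of the 22 arrays. In calcium absorption and vitamin D, also 15 genes, Rxra, the partner of the vitamin D receptor, rose on both diets (0.62 and 0.66, adjusted P 0.0266 and 0.00777) and was the 1 gene to meet the criteria. Trpv6, the apical calcium channel, gave 0.36 and 0.50, S100g, the calcium carrier of the cytosol, −1.44 and −2.05, and the receptor Vdr 0.21 and 0.37, of which none met the criteria, although the adjusted P for Vdr on HFD + inul PB was 0.0224.

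At the G protein level, Gnas, the general stimulatory subunit, differed from HFD by −0.05 (SE 0.09) with inulin and by 0.07 (SE 0.10) with the esters, beside the 1.90 and 2.24 of Gnal. None of 15 other G alpha subunits met the criteria on HFD + inulin, but 2 passed adjustment at smaller folds, the inhibitory subunits Gnai2 (0.34, adjusted P from limma 0.0161) and Gnai3 (0.25, adjusted P 0.0455), and Gnai2 did so on HFD + inul PB too (0.27, adjusted P 0.028). Both are named after their values were seen. On HFD + inul PB Gnat3, the taste cell subunit, was higher (1.23) and Gna14 lower (−1.19), with adjusted P from limma of 0.0708 and 0.0719 and signal above background on 11 and 13 of 22 arrays. Of 17 beta and gamma subunits 1 was higher and 1 lower on HFD + inulin, and 1 higher and 2 lower on HFD + inul PB. Gnb5, which pairs with RGS proteins, was the one that rose on both (0.75 on each, adjusted P from limma 0.00924 and 0.00355). Every fiber array was above every HFD array for it, as for 0.581% of all probes.

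Of 31 G protein regulators, 1 was lower on HFD + inulin (Rgs2, −0.85, adjusted P from limma 0.0759) and 1 on HFD + inul PB (Rgs19, −0.69, adjusted P 0.0184). Both are GTPase activators that shorten G protein signals. Ric8b, the chaperone and exchange factor known for its action on G alpha olf, gave −0.08 and −0.02. For comparison, 19 and 28 probes of the array lay further above HFD than Gnal did.

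Downstream, none of 10 adenylyl cyclases met the criteria on HFD + inulin, and 1 did on HFD + inul PB. That was Adcy1 (1.63, adjusted P from limma 0.0671), which was above background on 4 of 22 arrays. Adcy3, the cyclase that works with G alpha olf in olfactory neurons, was above background on 6 arrays and differed by −0.50 and −0.87, Adcy5 by −0.18 and −0.44, and Adcy6, a main cyclase of epithelia, by 0.07 and 0.01. Among 16 cAMP phosphodiesterases Pde2a met the criteria on both diets (−0.60 and −0.70, adjusted P 0.109 and 0.0346), and 1 other was lower on HFD + inul PB. Of 21 cAMP effectors 1 was lower on HFD + inulin, the protein kinase A subunit Prkar1b (−0.91, adjusted P 0.0897), and 3 on HFD + inul PB, led by another such subunit, Prkar2b (−1.72, adjusted P 0.0868).

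Genes whose transcription responds early to cAMP met the criteria in both directions. Of 15, 1 was higher and 1 lower on HFD + inulin, and 1 was higher on HFD + inul PB, with medians of −0.12 and 0.07, where 2.47% and 4.69% of all probes met the criteria. Dusp1, a MAP kinase phosphatase, rose on HFD + inulin (0.70, adjusted P from limma 0.0393) and gave 0.52 on HFD + inul PB. Pck1, an enzyme of gluconeogenesis, gave 0.61 on HFD + inulin and rose on HFD + inul PB (0.89, adjusted P 0.0219). The gene that fell on HFD + inulin was Fosb, a member of the AP-1 family (−0.94, adjusted P 0.00536), named here after its value was seen. On the Gq side, Itpr2, a calcium release channel, was the 1 gene of 19 to meet the criteria and did so on both diets (0.59 and 0.80, adjusted P 0.103 and 0.0144).

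**Figure D4:**
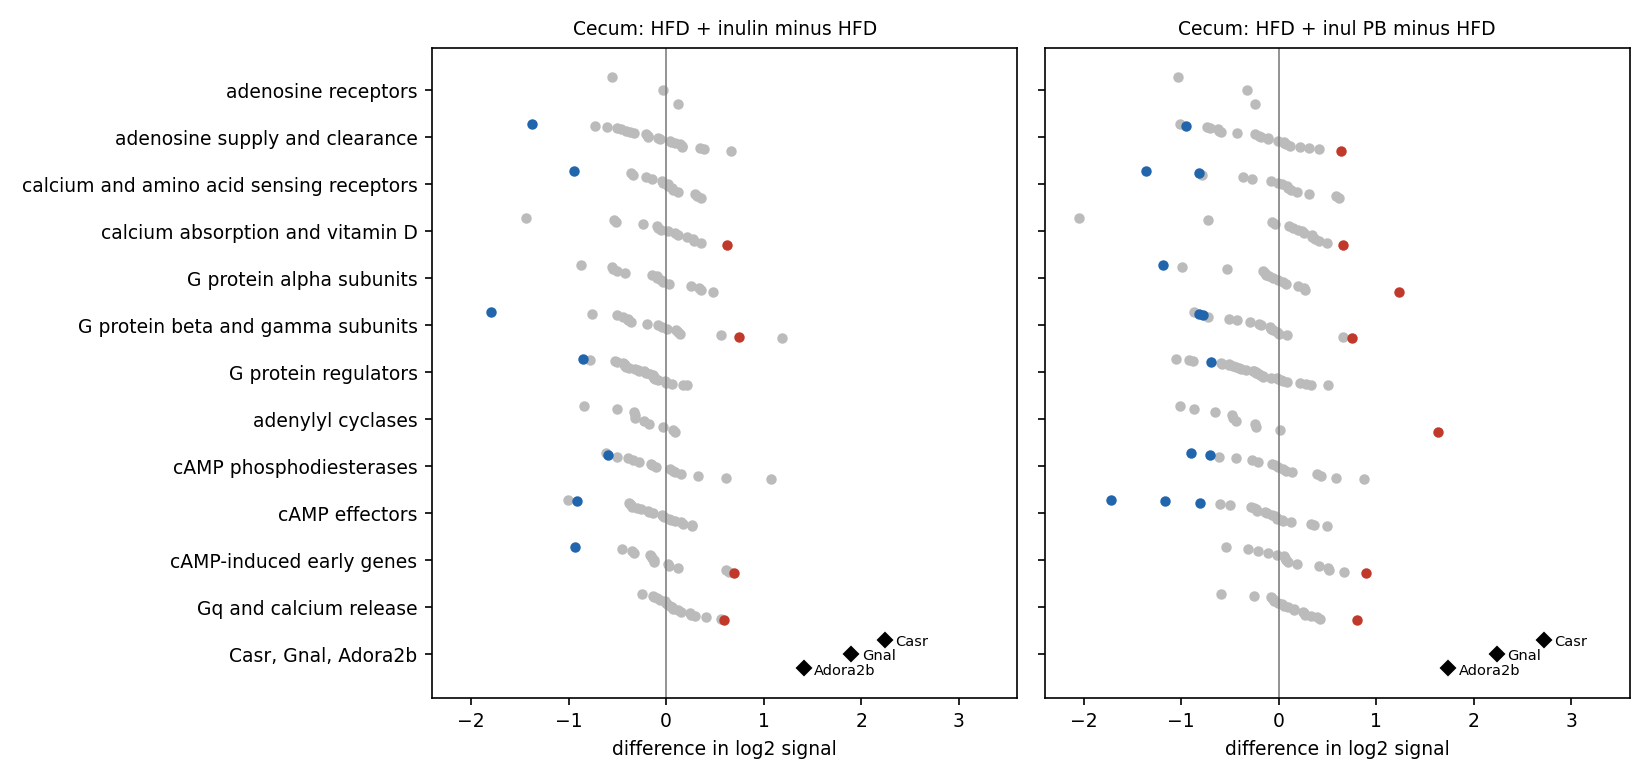
Difference from HFD in cecal log2 signal on each fiber diet for 199 genes of 12 lists, with Casr, Gnal and Adora2b as black diamonds; red and blue points are genes higher or lower by a fold over 1.5 with an unadjusted P under 0.01, and grey points are the rest. The 3 genes lie at 1.41 to 2.24 with inulin and 1.74 to 2.72 with the esters, to the right of all list genes in both panels.

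The genes most like each of the 3 were found by Pearson's r over the 22 cecum arrays, among 13769 named genes that were clearly detected throughout at least 1 diet. Since diet differences enter such an r, that of the deviations from the diet means is given second. Nearest to Casr were Arrdc4, an alpha-arrestin (0.94 and 0.81), Ptp4a1, a phosphatase (0.93 and 0.74), Nacad (0.93 and 0.85), the kinase Riok3 (0.92 and 0.81) and the phospholipase Pla2g2c (0.92 and 0.73). Nearest to Gnal were Arrdc4 again (0.92 and 0.63), Ttll9 (0.92 and 0.67), Mal, a membrane raft protein (0.92 and 0.66), the pseudogene Speer5-ps1 (0.92 and 0.65) and Sat2 (0.92 and 0.67). Nearest to Adora2b were the acyltransferase Mboat2 (0.96 and 0.91), the histone deacetylase Hdac1 (0.95 and 0.89), the glycosyltransferase B3gnt2 (0.94 and 0.86), the sugar phosphate transporter Slc37a2 (0.94 and 0.86) and Sat2 (0.94 and 0.87). In these rankings Gnal stood 31st and Adora2b 80th for Casr, Casr 21st and Adora2b 52nd for Gnal, and Casr 92nd and Gnal 98th for Adora2b. The points share the arrays and their diets, so these values are descriptions with no test.

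In the liver most of the 5 probes were at or near background. Casr was not well above background on any of 24 arrays and lay between 3.02 and 5.26, and Adora2b probe A_55_P1993503 was not on any of 24 either. The dimmer Adora2b probe was above background on 9 of 24 arrays and the second Gnal probe on 1 of 24. Gnal probe A_55_P2119633, above background on 20 of 24, was the one with a level on every diet.

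Liver Gnal did not differ detectably between diets. It ran from 5.03 to 5.92 with a median of 5.38 on HFD, from 4.22 to 6.83 (5.99) on LFD, from 4.73 to 6.12 (5.53) with inulin and from 4.79 to 6.85 (5.60) with the esters, and all 4 ranges overlapped. HFD + inulin differed from HFD by 0.06 (95% interval −0.69 to 0.80), HFD + inul PB by 0.22 (−0.53 to 0.97) and LFD by 0.29 (−0.45 to 1.04). With no background subtraction the first of these was −0.02, and no direction is read from it. Adjusted P from limma were 1, 1 and 0.924, and exact permutation P 0.823, 0.543 and 0.487. These intervals end below the 1.90 and 2.24 seen in cecum on the fiber diets, a comparison given with no test because the cecal values chose the gene.

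HFD + inul PB differed from HFD + inulin in the liver by 0.16 for Gnal (exact permutation P = 0.658). On the dimmer Adora2b probe the liver means were 4.66 ± 1.14 on HFD, 4.38 ± 1.04 on LFD, 5.29 ± 0.59 with inulin and 5.31 ± 0.56 with the esters (SD, n = 6 each, with 2, 2, 3 and 2 arrays above background). HFD + inulin, HFD + inul PB and LFD differed from HFD by 0.63, 0.66 and −0.28, with adjusted P from limma of 1, 1 and 0.962. Over all liver probes 0.399%, 0.289% and 0.717% met the study's criteria in these comparisons. None passed adjustment in limma on either fiber diet (0%), where 2108 and 1741 had an unadjusted P under 0.05, and 0.0287% passed on LFD.

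Of the 199 genes of the surrounding lists, 141 were detected throughout at least 1 diet in liver. By the study's criteria 1 was lower on HFD + inulin and none differed on HFD + inul PB, and 3 were higher and 2 lower on LFD. No list gene reached an adjusted P of 0.05 in liver. Medians over the lists were 0.05, 0.03 and 0.04. Adora1, the adenosine receptor that lowers cAMP, was among the lower genes on LFD (−0.87, adjusted P from limma 0.358).

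Cecum and liver were set side by side after all 46 arrays were normalised together. Each slide held 1 tissue, so slide and tissue cannot be told apart. The cecum HFD arrays were also the reference in the choice of the genes. The share of all probes that differed between the tissues is not given, so the P below do not set the 3 genes apart from others. On HFD Gnal stood at 7.83 in cecum and 5.63 in liver, a difference of 2.20 (SE 0.32, 4.6-fold, adjusted P from limma 1.63e-07). For Adora2b probe A_55_P1993503 the measured difference was 4.12 (SE 0.35, adjusted P 1.04e-13), and cecum was at least 5.51-fold higher, taking for the liver the lowest signal well above background on each array. Casr was 1.97 higher in cecum (5.03 against 3.06, SE 0.38, adjusted P 2.2e-05), which leaves a bound of at least 1.04-fold, since HFD cecum was itself near background. Without cecum HFD replicate 5 the measured differences were 2.38, 4.42 and 2.42. The dimmer Adora2b probe A_66_P118906, above background on 2 of 6 liver arrays, differed by 1.09 (2.14-fold, adjusted P 0.0191), with a bound of at least 1.33-fold, so the size of the Adora2b difference depended on the probe.

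On the other diets, given as values, cecum exceeded liver for Gnal 16.1-fold on HFD + inulin, 18.4-fold on HFD + inul PB and 4.91-fold on LFD. For Adora2b probe A_55_P1993503 it was at least 15.2-fold, 17.7-fold and 9-fold, and for Casr at least 4.44-fold, 6.77-fold and 1.45-fold. Probe A_66_P118906 gave 1.97-fold, 2.49-fold and 3.03-fold on the same diets, with 3, 2 and 2 of 6 liver arrays above background and bounds of at least 1.85-fold, 2.49-fold and 1.76-fold. The LFD difference from HFD did not differ detectably between the tissues for Gnal (0.10 more in cecum, SE 0.47, adjusted P from limma 0.982) or for the dimmer Adora2b probe (0.50 more, SE 0.57, adjusted P 0.885).

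**Figure D5:**
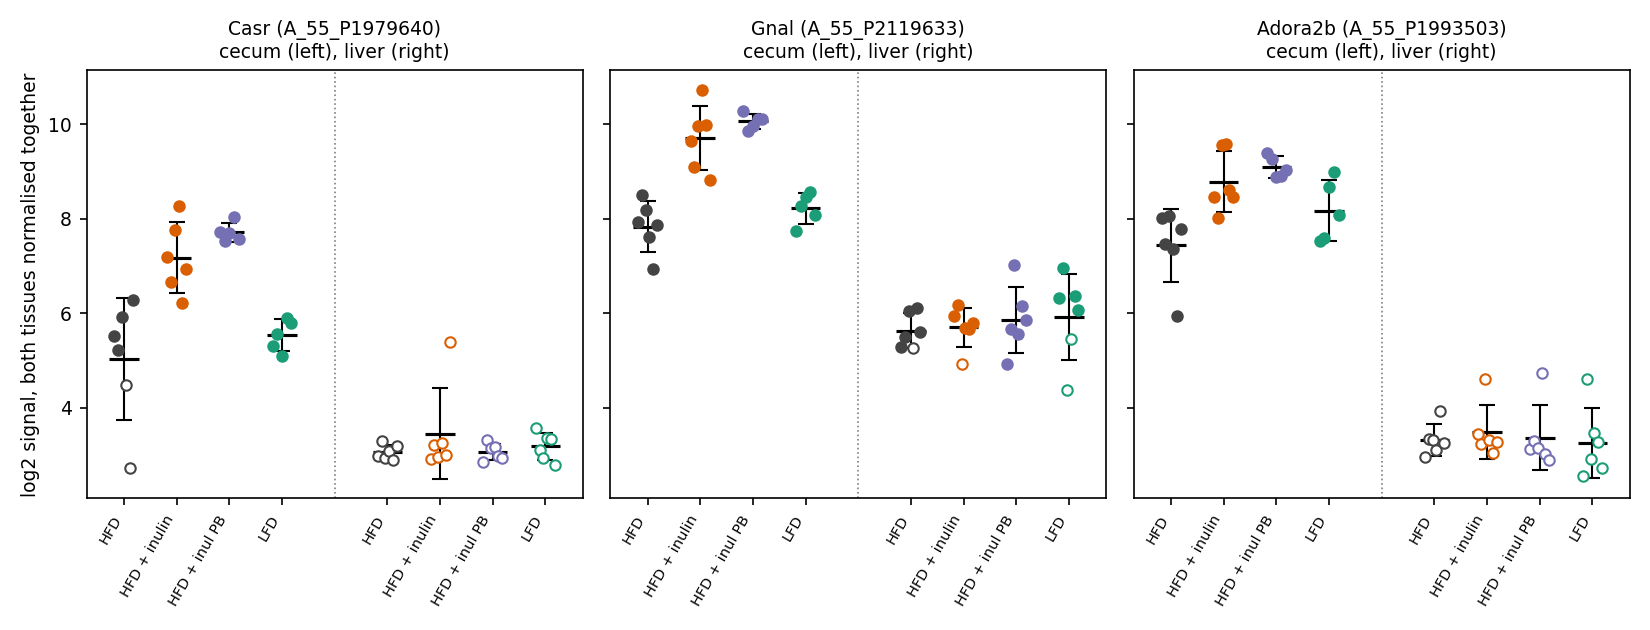
Log2 signal of Casr, Gnal and Adora2b on all 46 arrays normalised together, cecum left and liver right of the dotted line, by diet, with mean and SD; open circles are arrays not well above background. Liver Casr and this Adora2b probe (A_55_P1993503) are not above background on any array, and liver Gnal overlaps between diets.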

How the data were processed

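Tissue, diet and replicate came from the labels, and all 46 arrays entered the fits. The authors deposited Agilent Feature Extraction (version 10.7.3.1) output, which gives spot intensity, background-subtracted but not normalised between arrays, and a table of processed log2 values normalised by cyclic loess. From the intensity files control and outlier spots were left out, log2 processed signal was normalised by cyclic loess within a tissue (span 0.7), and spots of a probe were averaged. All diets of a tissue were fitted together in limma 3.58.1 (R 4.3.3). Adjusted P are Benjamini-Hochberg values over 55681 probes, threshold 0.05. Single comparisons had two-sided exact permutation tests, and correlations 1e+05 permutations within diets. The number of arrays limits the precision.

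Accessions were matched to RefSeq symbols for 27509 probes, and a list gene was read from its brightest probe on average in that tissue. The text names all probes of the 3 genes, a fixed set around them, from each list up to 4 genes that met the study's criteria on both fiber diets or else up to 2 on one, list genes passing adjustment in liver, and the 5 genes most like each member. Members and lists were chosen with earlier results of these data known. Scaling, background correction, source of values, a dim probe filter, outlier spots, slide and replicate blocks, arrays fitted and each array left out in turn were varied. The normexp alternative (offset 50) used the median spot signal in place of the planned mean signal. The fits were tested on simulated data.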

Additional observations from a re-analysis of the deposited data

Results flagged for a closer look

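In 5 of 40 groups of arrays (5 probes, 8 groups each), the highest array stood far from the others of its diet, where about 1 in 20 is flagged by chance, and all 5 were liver arrays not well above background, so no direction is read from them. For Casr, HFD + inulin replicate 6 gave 5.26 beside 3.09 for the next array, LFD replicate 1 gave 3.90 beside 3.15, and HFD + inul PB replicate 2 gave 3.13 beside 3.06. For Adora2b probe A_55_P1993503, HFD + inul PB replicate 4 gave 4.59 beside 3.43, and LFD replicate 2 gave 4.64 beside 3.17.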

How the results depend on the processing

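Of 1142 recomputed values of the 3 genes, 1109 kept their direction and call or stayed within the replicate spread, as did 231 of 272 counts of list genes, and the cause of the other shifts was not tested except where stated. The cecal Casr difference from HFD was 1.11 with inulin and 1.40 with the esters under normexp correction, and 1.27 and 1.60 both with no background correction and in the authors' processed values. Gnal in liver, HFD + inulin minus HFD, turned to −0.02 with no background correction and −0.01 in the authors' values, and the dimmer Adora2b probe in liver, HFD + inul PB minus HFD + inulin, to −0.09 with normexp and −0.10 in the other pair. Casr with Gnal reached r = 0.64 (permutation adjusted P 0.027) with arrays scaled to the 75th percentile. List genes meeting the study's criteria numbered 7 with inulin and 12 with the esters in cecum under normexp, beside 11 and 19. Between the fiber diets they numbered 2 with normexp and 3 with no background correction or in the authors' values, beside 5. For cecum LFD minus HFD they numbered 0 with quantile normalisation and 2 with each of the 3 background settings, beside 1. In liver they numbered 0 for HFD + inulin with each of those settings, and 1 for HFD + inul PB with no correction or in the authors' values. With the replicate number as a block the cecum LFD count was 0 and the liver HFD + inul PB count 1, and no other of these calls changed; same-numbered arrays correlated from −0.16 to 0.25 in cecum and from 0.00 to 0.28 in liver, so the numbers were not taken to pair the samples. Leaving out each array in turn gave 0 to 3 list genes for cecum LFD, 2 to 6 between the fiber diets there, 0 to 2 for liver HFD + inulin, 0 to 1 for liver HFD + inul PB and 0 to 1 between the fiber diets in liver. It gave −0.06 to 0.21, −0.01 to 0.40 and −0.07 to 0.34 for liver Gnal with inulin, with the esters and between them, and 1.85 to 2.06 for Casr, fiber diets minus LFD. For the dimmer Adora2b probe in liver it gave −0.60 to 0.04 for LFD and −0.15 to 0.20 between the fiber diets. That probe had no value in liver under the dim probe filter, which it did not pass. Signal near background limits Casr on HFD and all liver values.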
